A study of Mus musculus with 16 samples.

Results

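The genes described are 10 targets of 2 transcription systems that read the state of the actin cytoskeleton, serum response factor (SRF) and YAP. They were taken by gene symbol and are Acta2, Actb, Actg1, Tagln, Cnn2, Tpm1, Vcl, Myl9, Ctgf and Cyr61, which is 10 of the 23356 genes in each table. All 10 symbols were found in all 16 libraries. The libraries were mRNA-seq libraries of NIH3T3 cells, an immortalized mouse embryonic fibroblast line, treated with bortezomib, a drug that blocks the proteasome. A control group was sampled at 0 min with no stress applied, and the other groups were harvested after 45, 135 and 405 min of bortezomib, with 4 libraries in each group. According to the study's methods, all cells, controls included, carried a stably integrated fusion of a destabilizing domain to GFP (DD-GFP) and had been sorted as a population for high GFP. This limits all groups in the same way as a model of unmodified fibroblasts. The labels name no bortezomib dose, and no vehicle-treated library at 45, 135 or 405 min was analysed here, so time in culture and drug cannot be told apart.

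SRF is a DNA-binding protein of the MADS-box family that sits on the CArG box of contractile and cytoskeletal genes. Its partners of the MRTF family, encoded by Mkl1 and Mkl2, bind monomeric actin and are released to enter the nucleus when actin is polymerized. YAP and its relative TAZ, encoded by Yap1 and Wwtr1, are co-activators that bind DNA through TEAD proteins, and both are held in the cytoplasm when the Hippo kinases are active or tension on the cytoskeleton is low. In fibroblasts both systems act downstream of adhesion and serum, and Ctgf and Cyr61 are widely used as reporter genes of YAP.

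The contractile genes differ in where their SRF motifs lie, and the 250 bases before the start of 4 genes that recur in the results are printed here so that the motifs can be seen. RefSeq promoter windows on GRCm38.p6 were matched for 7 of the 10 genes, with Cyr61 matched under its present symbol Ccn1. Actb, Tagln and Ctgf had no entry. In the sequences, written 5′ to 3′ on the strand of the gene, capitals mark a CArG box or the TEAD core motif, CATTCC or its reverse complement GGAATG. The windows are chr11:120348496-120348745 on the minus strand for Actg1, chr14:20929148-20929397 on the plus strand for Vcl, chr10:79988350-79988599 on the plus strand for Cnn2 and chr3:145649986-145650235 on the minus strand for Cyr61.
Actg1: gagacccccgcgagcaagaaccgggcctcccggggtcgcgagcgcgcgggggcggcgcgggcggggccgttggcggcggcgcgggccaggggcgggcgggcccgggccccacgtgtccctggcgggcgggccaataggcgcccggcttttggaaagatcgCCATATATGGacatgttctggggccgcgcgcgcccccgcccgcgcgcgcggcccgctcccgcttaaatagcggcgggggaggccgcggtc
Vcl: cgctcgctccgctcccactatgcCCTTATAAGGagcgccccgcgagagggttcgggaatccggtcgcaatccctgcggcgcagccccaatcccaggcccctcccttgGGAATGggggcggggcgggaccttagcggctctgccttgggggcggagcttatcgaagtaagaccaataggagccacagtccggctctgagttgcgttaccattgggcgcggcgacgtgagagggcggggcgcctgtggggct
Cnn2: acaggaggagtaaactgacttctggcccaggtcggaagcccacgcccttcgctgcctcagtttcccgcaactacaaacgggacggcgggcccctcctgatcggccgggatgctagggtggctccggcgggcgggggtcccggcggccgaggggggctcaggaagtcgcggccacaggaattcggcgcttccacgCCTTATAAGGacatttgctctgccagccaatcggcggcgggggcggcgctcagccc
Cyr61: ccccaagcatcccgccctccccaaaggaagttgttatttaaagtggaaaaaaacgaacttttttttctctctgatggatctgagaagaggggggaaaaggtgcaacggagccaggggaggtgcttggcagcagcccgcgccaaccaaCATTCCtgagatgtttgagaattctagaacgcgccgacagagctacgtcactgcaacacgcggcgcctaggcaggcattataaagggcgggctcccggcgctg
A CArG box was searched on both strands as its consensus of 2 C, 6 A or T and 2 G, and the 2 motifs do not overlap in these windows. Actg1 held CCATATATGG between 90 and 81 bases before its start, Vcl held CCTTATAAGG between 227 and 218 bases and Cnn2 held the same 10 letters between 56 and 47 bases. Myl9 held CCTAATAAGG between 161 and 152 bases before its start. A CArG box was thus present in 4 of the 7 windows, against 1.47% of 32851 RefSeq mouse promoter windows of the same length. The TEAD core was present in the windows of Acta2, Tpm1, Vcl and Cyr61, again 4 of 7, against 12.6% of all windows. These are matches of letters and no binding was measured in this study. The absence of a match says only that the letters are not in this window.

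The libraries were not alike, and this bears on every value below. The share of fragments assigned to genes of cytosolic ribosomal proteins split the series, at 4.25% to 9.42% in 7 libraries and 0.398% to 1.21% in the other 9. The 7 libraries over 4% were replicates 1 and 2 at 45 min, replicates 1 and 2 at 135 min, and replicates 1, 3 and 4 at 405 min. All 4 controls were among the other 9. The library just inside the threshold of 4% was replicate 3 at 405 min, at 4.25% (95% Wilson interval 4.22% to 4.29%). The one just outside was control replicate 2, at 1.21% (1.19% to 1.23%). The 9 had 570323 to 1469951 assigned fragments each, and the 7 had 1385229 to 19930375. Olfactory and vomeronasal receptor genes, which fibroblasts are not known to use, were more abundant in the 9, with a share of 4.16% to 5.13%, than in the 7, with 0.00556% to 2.62%. A list of 10 fibroblast markers summed to 280 to 1612 CPM (fragments per 1000000 assigned fragments) in the 9 libraries and to 3460 to 19643 CPM in the 7, with every marker detected in some library. Markers of smooth muscle, which shares several of the genes described here, went the other way, with 7 genes summing to 268 to 591 CPM in the 9 libraries and 17.8 to 173 CPM in the 7. The summed epithelial, endothelial and leukocyte markers were likewise higher in the 9, at 146 to 209, 149 to 372 and 70.4 to 122 CPM, than in the 7, at 0.381 to 121, 0.544 to 95.3 and 0.317 to 34.7 CPM. None of the markers was at 0 in every library of either set. The labelled fibroblast identity was thus plainest in the 7 libraries, and the part of library composition in the results was not tested beyond the values given.

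Across all 16 libraries, the summed level of the members was higher in every bortezomib library with a ribosomal protein share over 4% than in any control, and no member passed the test at any time. The actins, Tpm1 and Vcl gave most of this sum. The 10 genes summed to 405 to 655 CPM in the 4 controls, which is 361 to 564 fragments per library, and to 993 to 9141 CPM in the 7 libraries over 4%. In the bortezomib libraries at or under 4% they summed to 248 to 533 CPM, with a range that overlapped that of the controls. How many of all genes were likewise higher in the 7 libraries than in any control was not counted. The summed fibroblast markers were, at 3460 to 19643 CPM against 280 to 1612 CPM in the controls, so this separation is not particular to the members. In bulk RNA, fewer cells of a type and less RNA per cell cannot be told apart.

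**Figure D1:**
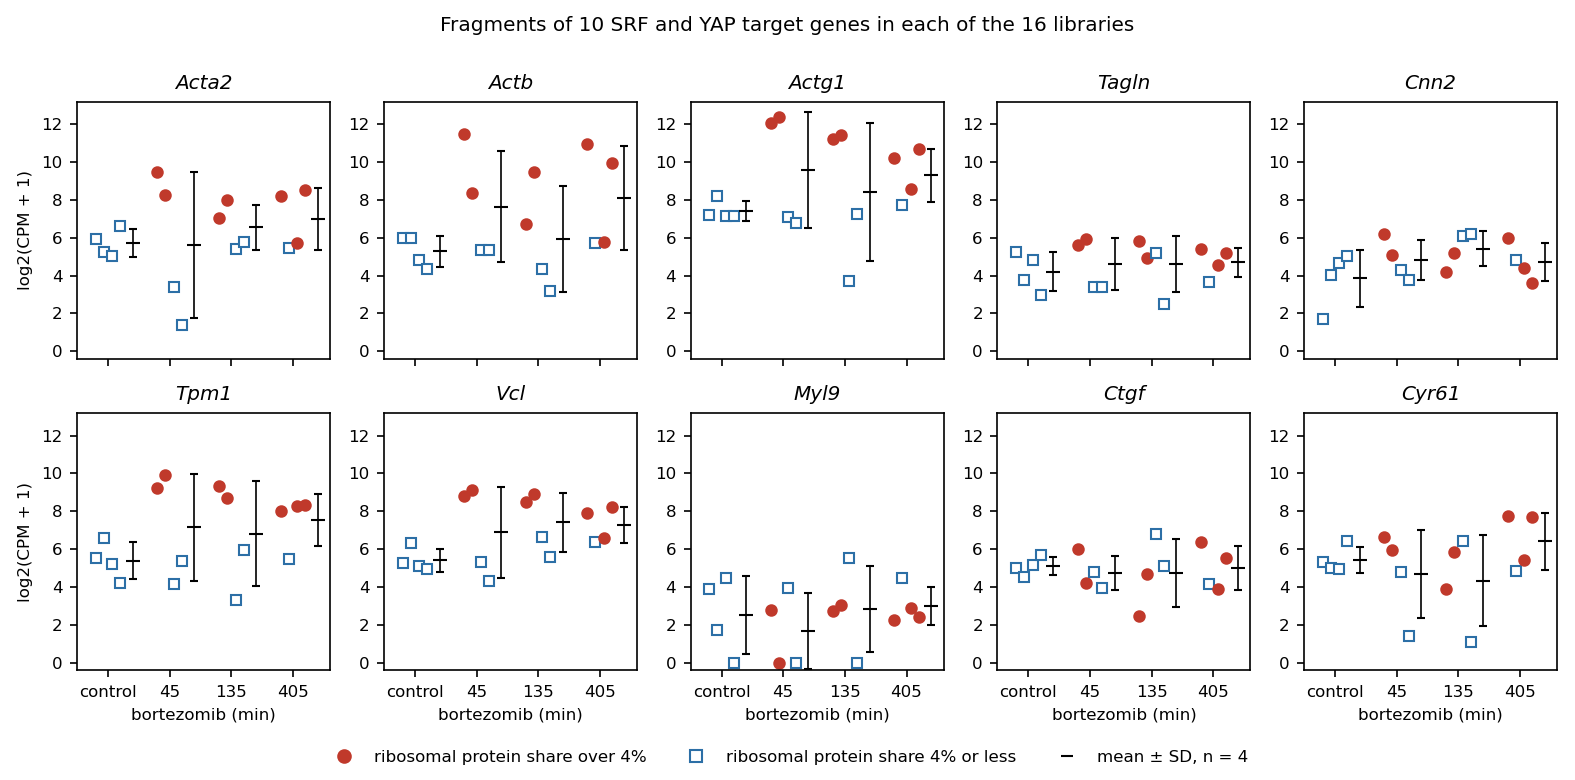
Each panel plots log2(CPM + 1) of 1 gene in the 16 libraries by time of bortezomib, with libraries of a ribosomal protein share over 4% as filled circles, the others as open squares, and a black bar and whiskers for the mean ± SD of the 4 libraries in a group. For Acta2, Actb, Actg1, Tpm1 and Vcl all filled circles at 45 and 135 min lie above all control squares. The open squares of these genes at these times lie near or below the controls, apart from Vcl in replicate 3 at 135 min. Ctgf and Myl9 show no such separation.

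The 3 actin genes encode the cytoplasmic isoforms beta (Actb) and gamma (Actg1) and the smooth muscle isoform alpha (Acta2), which also marks contractile fibroblasts. On the NCBIM37 build, Actb lies on chromosome 5 at 143664794 to 143668433, Actg1 on chromosome 11 at 120207004 to 120209856 and Acta2 on chromosome 19 at 34315580 to 34329826, all on the minus strand, and the values are of fragments over their whole exon models. Actg1 was at 147, 299, 139 and 141 CPM in control replicates 1 to 4, at 4266, 5329, 138 and 109 CPM at 45 min, at 2352, 2781, 12.3 and 151 CPM at 135 min, and at 1195, 209, 381 and 1667 CPM at 405 min. Its highest libraries were thus those over 4% at 45 min, and only its libraries at or under 4% lay within or below the control range. Actb was at 62.1, 61.5, 26.9 and 19.7 CPM in the controls, at 2836, 331, 40.1 and 40.0 CPM at 45 min, at 107, 707, 19.3 and 7.95 CPM at 135 min, and at 1954, 52.0, 54.1 and 1001 CPM at 405 min. Actb varied widely between the 2 libraries over 4% at 45 min, where Actg1 was at 4266 and 5329 CPM. Acta2 was at 59.9, 37.1, 31.4 and 98.3 CPM in the controls, at 713, 305, 9.52 and 1.60 CPM at 45 min, at 131, 254, 42.1 and 53.4 CPM at 135 min, and at 297, 42.9, 52.0 and 374 CPM at 405 min. Its libraries at 45 min enclosed the controls on both sides, and its 2 lowest values of the whole series were the 45 min libraries at or under 4%.

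The actins have similar coding sequences, and whether fragments of one were assigned to another was not tested. The annotated coding sequences of Actb and Actg1 were 88.7% identical, with a longest identical stretch of 62 bases. Acta2 was 82.8% identical to Actb and 81.5% to Actg1. Actb took 12.2% to 29.7% of the fragments of Actb and Actg1 together in the controls. It took 62.1% in replicate 1 at 405 min (95% Wilson interval 61.6% to 62.5%) and 4.33% in replicate 1 at 135 min (3.90% to 4.81%), both deep libraries over 4%. The share of Actb thus spanned a wider range between these bortezomib libraries than over the controls. Bortezomib libraries at or under 4% were as far apart at 135 min. There the share was 61.1% in replicate 3 (38.6% to 79.7%), from 11 fragments of Actb and 7 of Actg1. In replicate 4 it was 5.0% (2.44% to 9.96%). All such intervals cover counting error only.

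Tagln encodes transgelin, Cnn2 calponin 2 and Tpm1 tropomyosin 1, which bind actin filaments, while Vcl encodes vinculin, which links filaments to adhesion sites. Myl9 encodes a regulatory light chain of myosin II. Tpm1, on chromosome 9 at 66870397 to 66897213, was at 45.2, 94.0, 35.9 and 17.3 CPM in the controls, at 594, 966, 17.0 and 40.0 CPM at 45 min, at 644, 412, 8.77 and 60.2 CPM at 135 min, and at 259.6, 44.2, 305 and 323 CPM at 405 min. Vcl, on chromosome 14 at 21748655 to 21852895 and with both motifs in its printed window, was at 37.3, 78.9, 33.7 and 30.1 CPM in the controls, at 442, 552, 39.5 and 19.2 CPM at 45 min, at 359.9, 488, 98.2 and 46.6 CPM at 135 min, and at 239.5, 80.6, 95.3 and 300.0 CPM at 405 min. All 4 Vcl values at 405 min lay above all 4 controls, although replicate 2 at 405 min passed control replicate 2 by only 80.6 against 78.9 CPM. Vcl was the 1 member higher at 405 min without overlap, where 6.86% of all tested genes were likewise.

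Tagln and Cnn2 were lower and closer together. Tagln, on chromosome 9 at 45737711 to 45744141, was at 37.3, 12.8, 26.9 and 6.94 CPM in the controls, at 48.4, 60.9, 9.52 and 9.61 CPM at 45 min, at 56.8, 29.3, 35.1 and 4.54 CPM at 135 min, and at 40.7, 11.7, 22.4 and 35.6 CPM at 405 min. Cnn2, on chromosome 10 at 79451329 to 79458807, was at 2.26, 15.1, 24.7 and 31.2 CPM in the controls, at 72.8, 33.1, 18.4 and 12.8 CPM at 45 min, at 17.4, 35.4, 68.4 and 71.5 CPM at 135 min, and at 62.6, 27.3, 20.2 and 11.3 CPM at 405 min. The highest Cnn2 values at 135 min came from the libraries at or under 4%, and the low control value of 2.26 CPM was 2 fragments.

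Myl9 could not be tested with the others, since it had 0 fragments in 4 libraries. It lies on chromosome 2 at 156601156 to 156607394. Its values were 13.6, 2.32, 21.3 and 0 CPM in the controls, 5.77, 0, 14.3 and 0 CPM at 45 min, 5.71, 7.12, 45.6 and 0 CPM at 135 min, and 3.81, 20.8, 6.50 and 4.32 CPM at 405 min. A count of 0 allows up to 3.47 CPM in control replicate 4, 0.491 CPM in replicate 2 and 4.81 CPM in replicate 4 at 45 min, and 3.41 CPM in replicate 4 at 135 min, taking 3 fragments per library as the limit. The mean log2(CPM + 1) of Myl9 differed from the controls by -0.85 at 45 min (two-sided exact permutation p = 0.657, n = 4 against 4), by 0.31 at 135 min (exact p = 0.886) and by 0.49 at 405 min (exact p = 0.714). The smallest p that 4 against 4 allows is 0.0286, and all 3 differences were smaller than the spread between libraries.

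Ctgf and Cyr61 encode secreted matricellular proteins of the CCN family and are the 2 direct YAP reporters of the set. Ctgf, on chromosome 10 at 24315248 to 24318489, was at 30.5, 22.1, 34.8 and 50.9 CPM in the controls, at 63.8, 17.7, 26.5 and 14.4 CPM at 45 min, at 4.44, 24.6, 110.5 and 32.9 CPM at 135 min, and at 81.6, 16.9, 13.7 and 45.3 CPM at 405 min. The lowest and the highest Ctgf values of the series both came from 135 min. Cyr61, on chromosome 3 at 145309935 to 145312949, was at 39.5, 31.3, 30.3 and 84.4 CPM in the controls, at 98.8, 61.6, 26.5 and 1.60 CPM at 45 min, at 14.0, 57.1, 84.2 and 1.14 CPM at 135 min, and at 214, 27.3, 42.6 and 203 CPM at 405 min. The 2 highest Cyr61 values were those of replicates 1 and 4 at 405 min, and the 2 lowest, 1.60 and 1.14 CPM, were each 1 fragment.

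Levels of different genes were compared per transcript length, as the FPKM that the authors deposited. In the 7 libraries over 4% the order of median FPKM was Actg1 at 1498, Actb at 382, Tpm1 at 274, Acta2 at 117, Vcl at 78.0, Cyr61 at 44.9, Tagln at 31.3, Cnn2 at 22.4, Ctgf at 10.7 and Myl9 at 6.46. The ranges of neighbours in this order overlapped for every pair, so that only genes far apart in it are separated by more than the spread between libraries. In the other 9 libraries Actg1 was again highest at 70.5 FPKM. There Tpm1 followed at 24.7 and Actb at 19.8, and Cyr61, Acta2, Myl9, Ctgf and Cnn2 lay between 13.1 and 13.9 FPKM. Tagln at 7.16 and Vcl at 6.64 FPKM were last in the 9 libraries.

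The rank of a gene within its own library needs no scaling between libraries, but at low counts it moves with depth and with the share of genes at 0, which was 5.65% to 49.5%. Cyr61 at 1 fragment, for example, ranked at percentile 26.5 in one library and 34.1 in another. Vcl lay between percentiles 85.0 and 96.7 of all genes by FPKM in the 7 libraries and between 21.9 and 75.5 in the 9. Actg1 lay between 98.9 and 99.8 in the 7, and was already at 98.3 or above in 8 of the 9 others, with 58.5 in replicate 3 at 135 min. Tagln ranked between 81.4 and 93.9 in the 7 and between 30.2 and 89.7 in the 9.

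**Figure D2:**
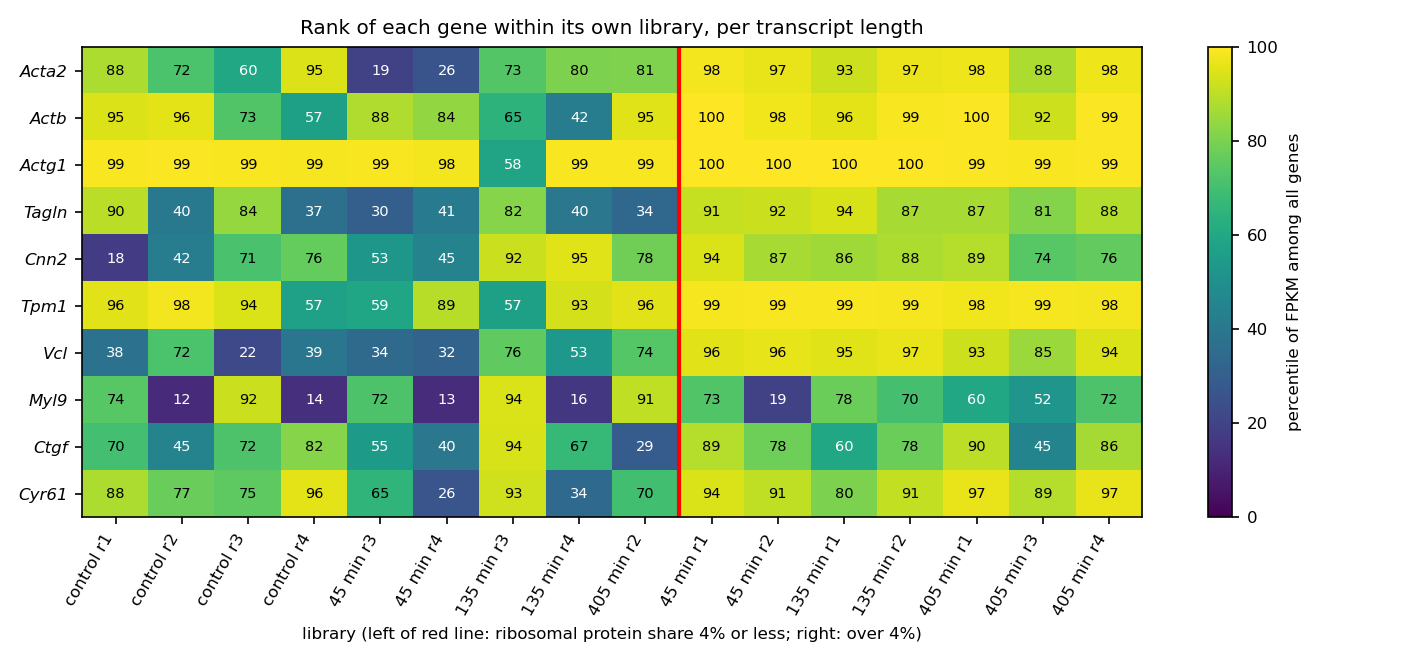
The map gives, for each gene (rows) in each library (columns), the percentile of its FPKM among all 23356 genes of that library, printed in the cell to the nearest whole percentile and coloured from 0 (dark) to 100 (yellow). Libraries with a ribosomal protein share of 4% or less are left of the red line and those over 4% right of it. Vcl moves from 21.9 to 75.5 on the left to 85.0 to 96.7 on the right, whereas Actg1 is near the top on both sides except in replicate 3 at 135 min.

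The first comparison asked which members differ between bortezomib and control in all 16 libraries. In edgeR's quasi-likelihood test, 9 of the 10 members were among the 5030 genes with at least 1 fragment in every library, and 0 of 9 passed an adjusted p of 0.05 at 45, 135 or 405 min, as did 0% of all tested genes. Fold changes are on the scale of trimmed mean normalization (TMM), so they differ from ratios of the CPM above. At 45 min all 9 estimates were above 0, with a median log2 difference of 2.64 against 0.14 for all tested genes. At an unadjusted p under 0.05, 4 of the 9 were higher at 45 min, where 12.1% of all tested genes were. These were Actb, at a log2 difference of 4.68 (SE 1.75, edgeR adjusted p = 0.381), Actg1 at 4.24 (SE 1.67), Tpm1 at 3.56 (SE 1.39) and Vcl at 3.02 (SE 1.11), all with the same adjusted p. Acta2 followed at 2.64 (SE 1.30, adjusted p = 0.393). The filament-binding Cnn2 and Tagln were at 1.29 (SE 0.77) and 1.07 (SE 0.86). The YAP reporters were near 0, with Cyr61 at 0.45 (SE 1.01) and Ctgf at 0.15 (SE 0.79).

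At 135 min, 8 of the 9 estimates were above 0, with a median of 1.45 against 0.16 for all tested genes. At an unadjusted p under 0.05, 2 members were higher, where 7.83% of all tested genes were, namely Tpm1 at 2.91 (SE 1.35) and Vcl at 2.72 (SE 1.09), each with an edgeR adjusted p of 0.513. Actg1 was at 3.17 (SE 1.59), Actb at 2.47, Cnn2 at 1.45, Acta2 at 1.30, Tagln at 0.86 and Ctgf at 0.27. Cyr61 was the only member below 0, at -0.22. At 405 min all 9 were above 0 again, with a median of 2.18 against 0.11 for all tested genes. Actb at 4.55 (SE 1.74, edgeR adjusted p = 0.285) and Vcl at 2.38 (SE 1.08, adjusted p = 0.301) were the 2 members at an unadjusted p under 0.05, where 14.5% of all tested genes were higher. Cyr61 was at 1.80 (SE 1.04) at this time and Ctgf at 0.55.

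These comparisons share the 4 controls, so the 3 sets of estimates are not independent of each other. The common dispersion of the fit was 0.625, a biological coefficient of variation of 79.1%, with 12 residual degrees of freedom. DESeq2, run on the same counts and genes, called Actb, Actg1, Tpm1 and Vcl higher at 45 min with 6.56% of all tested genes, Tpm1 and Vcl at 135 min with 3.44%, and Actb at 405 min with 8.03%.

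For many members the difference from control did not keep its direction when library composition entered the fit. With the log2 ribosomal protein share as a covariate, 5, 4 and 3 of the 9 estimates were above 0 at 45, 135 and 405 min, and the medians were 0.15, -0.40 and -0.16. With only the libraries at or under 4%, which leaves 2 bortezomib libraries against 4 controls, all 9 estimates at 45 min were below 0, with a median of -0.71 against 0.00 for all 8366 genes tested. Acta2 was lowest, at -3.15 (unadjusted p = 0.00203, edgeR adjusted p = 0.999), an estimate that rests on 14 and 1 fragments in these 45 min libraries. At 135 min 3 estimates were above and 6 below 0, and Cnn2 was highest at 1.83. At 405 min only 1 library was at or under 4%. Without a control over 4%, bortezomib and library composition cannot be told apart among the other libraries.

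**Figure D3:**
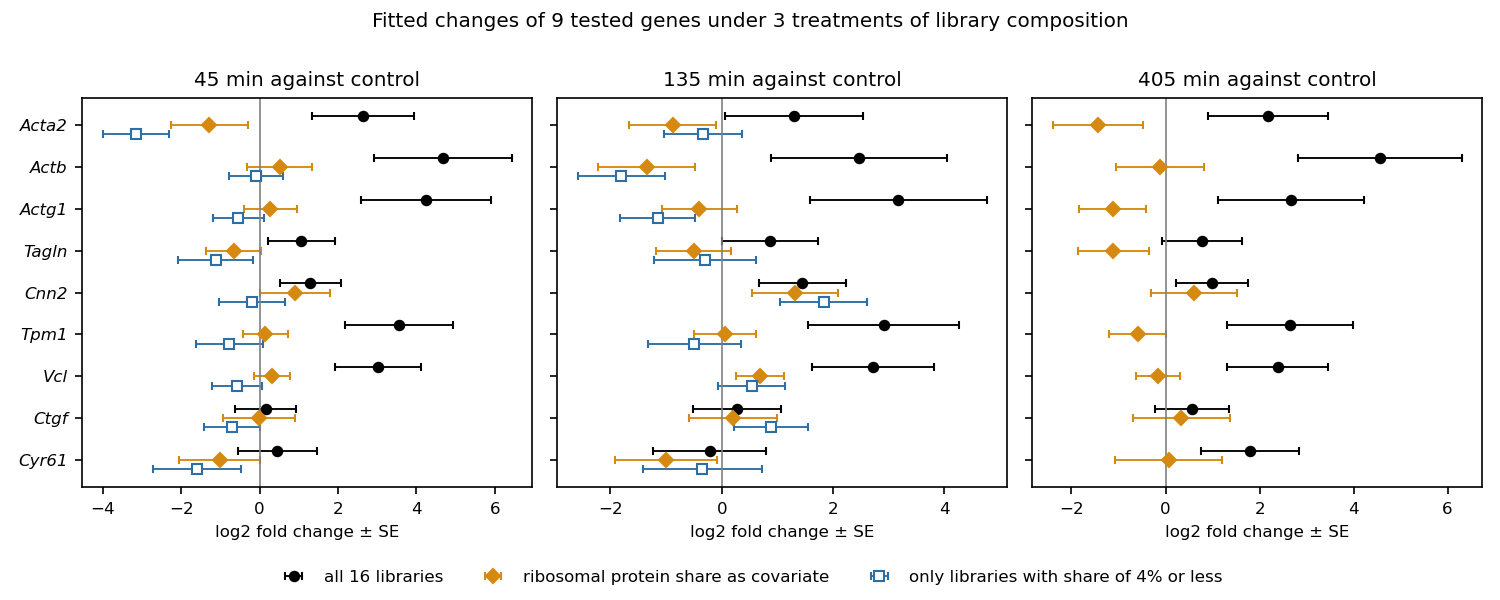
Each panel gives the log2 fold change ± SE against control for the 9 tested members at 1 time, in the fit on all 16 libraries (black circles), with the ribosomal protein share as a covariate (orange diamonds), and, at 45 and 135 min, only in libraries with a share of 4% or less (blue squares). The black circles of Actb, Actg1, Tpm1 and Vcl lie between 2.38 and 4.68, while their diamonds and squares lie between -1.81 and 0.69.

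The second comparison followed the course from 45 to 405 min within the 7 libraries over 4%. Their ribosomal protein share, 4.25% to 9.42%, spanned less than over all 16 libraries, where the lowest was 0.398%. Other measures of composition still differed widely among the 7. The share of olfactory and vomeronasal receptor genes ran from 0.00556% to 2.62%, and that of genes at 0 from 5.65% to 49.5%. The part of composition in this course was not tested. Among these 7 libraries, Actg1, Tpm1 and Vcl lay lower in every library at 405 min than in all earlier ones. The mean of Cyr61 was highest at 405 min. No member passed the test in any of the 3 comparisons. The fit held 8605 genes, had a common dispersion of 0.466 and left 4 residual degrees of freedom, and 0% of genes passed an adjusted p of 0.05 in edgeR's quasi-likelihood test. DESeq2 called 0 of the 9 members in these comparisons as well. The 10 genes summed to 9141 and 7656 CPM at 45 min, to 3691 and 4796 CPM at 135 min and to 4347, 993 and 3965 CPM at 405 min, the value of 993 being that of replicate 3, the library just over the threshold.

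From 45 to 135 min all 9 estimates were below 0, with a median of -1.15 against -0.07 for all genes. Acta2, Actg1 and Cyr61 were lower at 135 min without overlap, where 13.3% of all tested genes were. Acta2 differed by -1.54 (SE 0.94), Cyr61 by -1.36 (SE 0.88) and Actg1 by -1.02 (SE 0.96), each with an edgeR adjusted p of 0.997. Actb had the lowest estimate, -2.15, and also the widest error (SE 1.48).

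From 135 to 405 min 5 estimates were above 0 and 4 below, with a median of 0.36 against 0.16 for all genes. Of all tested genes, 57.0% were above 0. Cyr61 was higher by 2.34 (SE 0.86, unadjusted p = 0.0212, edgeR adjusted p = 0.909) and Ctgf by 1.91 (SE 0.97). Cyr61 was the 1 member at an unadjusted p under 0.05, where 1.46% of all tested genes were higher. Actg1 at -1.08 (SE 0.86), Vcl at -0.83 (SE 0.67) and Tpm1 at -0.75 (SE 0.64) were lower without overlap, where 11.9% of all tested genes were.

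Over the whole course, from 45 to 405 min, 7 of the 9 estimates were below 0, with a median of -0.79 against 0.14 for all genes. Actg1 differed by -2.10 (SE 0.86, unadjusted p = 0.0343, edgeR adjusted p = 0.690), and was the 1 member at an unadjusted p under 0.05, where 4.15% of all tested genes were lower. Tpm1 differed by -1.39 (SE 0.64, adjusted p = 0.691) and Vcl by -1.19 (SE 0.67, adjusted p = 0.694). Tagln differed by -0.72 (SE 0.63). These 4 genes were lower at 405 than at 45 min without overlap, where 15.9% of all tested genes were. Acta2 at -1.01, Cnn2 at -0.79 and Actb at -0.63 overlapped between the times. The sign of Actb rested on replicate 1 at 45 min, without which its estimate was 1.58, and a replicate block gave 0.20 for Actb and 0.093 for Cnn2. Cyr61 at 0.98 (SE 0.81) and Ctgf at 0.23 (SE 0.91) were the 2 members above 0.

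Actg1 was the 1 member whose libraries were lower at each later time than at the one before without overlap, from 4266 and 5329 CPM through 2352 and 2781 CPM to 381, 1195 and 1667 CPM. Of all tested genes, 2.10% showed the same order. Actg1, Tpm1 and Vcl lay lower in all 3 libraries at 405 min than in all 4 earlier ones, as did 7.72% of all tested genes.

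Replicate 3 at 405 min decided some of these values. It held 4.25% ribosomal protein fragments and the lowest fibroblast marker sum of the 7, 3460 CPM against 12117 CPM or more. In the 6 libraries over 6%, which leave it out, Cyr61 was higher at 405 min, at 214 and 203 CPM, than in all 4 earlier libraries, at 14.0 to 98.8 CPM, and 10.3% of all tested genes were likewise. Cyr61 then differed by 2.79 from 135 to 405 min (SE 0.70, edgeR adjusted p = 0.450) and by 1.43 from 45 to 405 min (SE 0.67, adjusted p = 0.631). The falls of Actg1 and Vcl were smaller with replicate 3 left out. From 45 to 405 min they were then -1.69 and -0.83, against -2.10 and -1.19 with it. From 135 to 405 min they were -0.66 and -0.47, against -1.08 and -0.83. Cyr61 had more fragments than Ctgf in each of the 7 libraries over 4%, by 1.55 to 4.49 times, so the 2 YAP reporters kept the same order there.

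**Figure D4:**
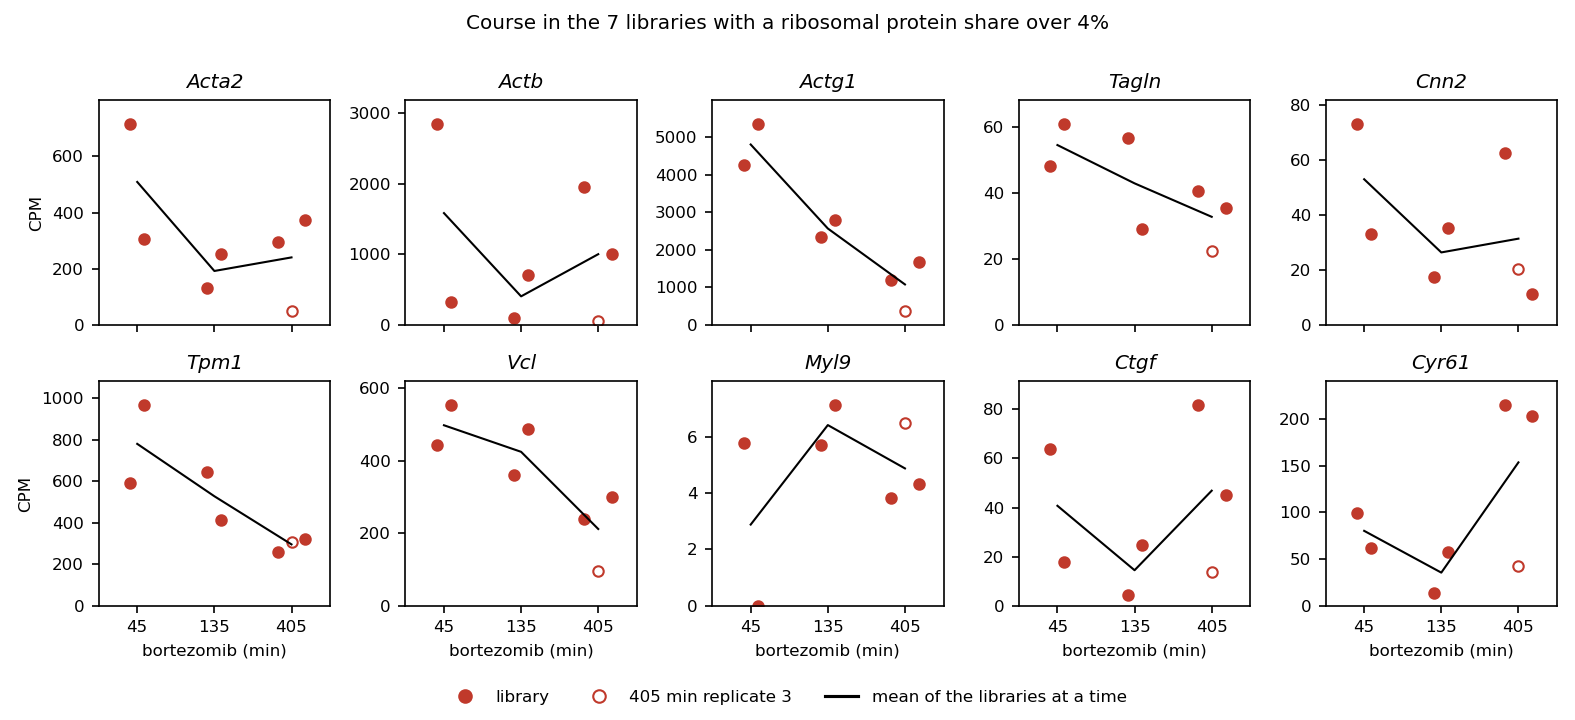
Each panel plots CPM on a linear axis from 0 against time of bortezomib for 1 gene in the 7 libraries with a ribosomal protein share over 4%, with a point per library, replicate 3 at 405 min as an open circle, and a line through the mean of each time. Actg1 goes from 4266 and 5329 CPM at 45 min to 381 to 1667 CPM at 405 min, while Cyr61 reaches 214 and 203 CPM at 405 min in the libraries other than replicate 3.

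Over all 16 libraries, the steps between bortezomib times gave 0 members passing the test as well, and 0% of all tested genes. There the largest estimate between 45 and 135 min was that of Actb, -2.22 (SE 1.57), and the members' medians were -0.65, -0.09 and -0.30 from 45 to 135, from 135 to 405 and from 45 to 405 min.

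Other genes of the actin and SRF system were read beside the members from a list of 33 genes, of which 18 were tested. This list, like the YAP and regulator lists below, was chosen with earlier results of these data known. Its counts are therefore no independent support for the values of the members. None of the 18 passed the adjusted threshold in the edgeR test at any time. At an unadjusted p under 0.05, 10, 2 and 9 of the 18 were higher than control at 45, 135 and 405 min and 0 were lower, where 12.1%, 7.83% and 14.5% of all tested genes were higher. The medians of the 18 were 2.37, 1.38 and 2.31, against 0.14, 0.16 and 0.11 for all tested genes. The 4 most abundant, by mean CPM over all 16 libraries, were Myh9 (non-muscle myosin heavy chain IIA), Cald1 (caldesmon), Itgb1 (integrin beta 1) and Myl12a (a myosin regulatory light chain). Such a pick favours genes that are high in the libraries over 4%, here and in the YAP and regulator lists below. The contrast of the picked genes between these libraries and the controls is thus partly set by the pick. Myh9 was at 38.2 to 118 CPM in the controls and at 173 to 2002 CPM in the 7 libraries over 4%, and differed by 3.19 at 45 min (SE 1.45, edgeR adjusted p = 0.381). Cald1 was at 33.5 to 159 CPM in the controls and 477 to 1075 CPM in the 7, and Itgb1 at 11.6 to 91.5 and 230 to 1131 CPM. Myl12a, at 30.3 to 59.9 CPM in the controls and 90.2 to 781 CPM in the 7, had at least 1 fragment in every library. Over all libraries at or under 4%, controls included, Myh9 was at 15.8 to 118 CPM and Cald1 at 30.4 to 159 CPM. Itgb1 was at 11.6 to 107 CPM there and Myl12a at 4.81 to 85.9 CPM. Within the 7 libraries 25 of the 33 genes were tested, and their median from 45 to 405 min was 0.03, against 0.14 for all genes. Myh9 at 0.16 (SE 1.01), Itgb1 at -0.14 (SE 0.80) and Cald1 at -0.38 (SE 0.70) were nearer 0 than Actg1 and Tpm1. Myl12a was at -1.19 (SE 0.79). The errors are wide, and differences between genes were not tested.

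Of a list of 23 further YAP and TEAD target genes, 16 were tested and 0 passed. Their medians against control were 0.26, 0.29 and 0.02 at 45, 135 and 405 min, close to those of all genes, with 4, 1 and 1 higher and 0, 1 and 0 lower at an unadjusted p under 0.05, where 12.1%, 7.83% and 14.5% of all tested genes were higher and 0.775%, 1.35% and 1.51% lower. Thbs1, which encodes thrombospondin 1, was at 46.3 to 92.9 CPM in the controls, and in the libraries over 4% at 737 to 753 CPM at 45 min, 289 to 306 CPM at 135 min and 127 to 294 CPM at 405 min. Over all libraries at or under 4%, controls included, it was at 5.26 to 131 CPM. In the libraries over 4% Thbs1 differed by -1.67 from 45 to 405 min (SE 0.63, unadjusted p = 0.0240, edgeR adjusted p = 0.690), which is the opposite sign to Cyr61. Myof (myoferlin) at -1.02 and Asap1 (an Arf GTPase-activating protein) at -1.38 were also below 0 over this interval. Ptpn14, a tyrosine phosphatase that restrains YAP, was at 1.96 (SE 0.64, unadjusted p = 0.0117, adjusted p = 0.690). The estimates of the YAP targets over this interval thus had both signs.

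Of 23 genes that act upstream, 14 were tested and 0 passed. At an unadjusted p under 0.05, 3, 0 and 4 of the 14 were higher than control at 45, 135 and 405 min and 0 were lower. Of all tested genes, 12.1%, 7.83% and 14.5% were higher. Srf itself was at 64.4 to 116 CPM in the controls and at 8.56 to 40.4 CPM in the 7 libraries over 4%, and differed from control by -1.06 (SE 0.69), -0.44 (SE 0.68) and -1.13 (SE 0.69) at 45, 135 and 405 min. In the libraries over 4% Srf thus lay below the controls, where Actg1, Tpm1 and Vcl lay above them. How many of all genes lay below or above the controls in this way was not counted. Among bortezomib libraries at or under 4%, Srf was also below the lowest control in replicate 4 at 45 min (22.4 CPM), replicate 3 at 135 min (35.1 CPM) and replicate 2 at 405 min (57.2 CPM). It was at 81.6 CPM in replicate 3 at 45 min and 152 CPM in replicate 4 at 135 min. Mkl2 was likewise lower in the libraries over 4%, at 294 to 409 CPM in the controls and 52.6 to 281 CPM in the 7. Mkl1 was at 7.91 to 76.3 and 3.44 to 54.6 CPM. Yap1 was at 31.3 to 50.8 CPM in the controls and 73.2 to 142 CPM in the 7, and differed by 0.95, 0.33 and 1.39. Wwtr1 was left out of the fit on all libraries by 1 library with 0 fragments and was at 51.9 to 68.4 CPM in the controls and 24.4 to 167 CPM in the 7. Rock2, which encodes a kinase that promotes myosin contraction, was at 57.2 to 125 CPM in the controls and 160 to 542 CPM in the 7, and the Hippo adaptor gene Mob1a was at 4.62 to 36.0 and 110 to 622 CPM. Over all libraries at or under 4%, controls included, Srf was at 22.4 to 152 CPM and Mkl2 at 256 to 492 CPM. There Mkl1 was at 7.91 to 76.3 CPM, Yap1 at 3.51 to 50.8 CPM and Wwtr1 at 0 to 167 CPM. Rock2 was at 38.6 to 125 CPM in that set and Mob1a at 4.62 to 36.0 CPM. From 45 to 405 min in the 7 libraries, none of the named regulators reached an unadjusted p of 0.05, with Mkl1 nearest at 1.98 (SE 0.93, edgeR adjusted p = 0.691). Of all 19 listed regulators tested there, 1 was lower at that level, where 4.15% of all tested genes were. From 135 to 405 min Wwtr1 was the 1 regulator higher at that level, where 1.46% of all tested genes were. It differed by 1.60 (SE 0.67, unadjusted p = 0.0373, edgeR adjusted p = 0.909).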

How the data were processed

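The 16 tables gave 1 mRNA-seq library each. The authors deposited estimated counts (fragments assigned to each gene, 98.4% to 99.8% of values whole within 0.001), which were rounded to whole counts here, and FPKM per gene. Per the study's methods, RNA was poly(A)-selected, a NuGEN Encore kit was also used, and reads were mapped to mm9 and analysed against RefSeq on DNAnexus. The labels name total RNA and a NuGEN Encore kit, and the submitters' processing notes mm10. The aligner and its version are not given in the sources used here. Scaled fragment columns were not used. In 1 table (45 min, replicate 1), 27 symbols that had become dates were restored from the row order of the others.

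Groups and replicate numbers came from sample titles. No 2 of the 120 pairs of libraries were identical. The replicate numbers are not said to mark a shared culture or day. Between 45 and 135 min same-numbered libraries deviated together (r of 0.474 to 0.529 in 4 pairs, with replicates 1 and 2 over and 3 and 4 under the 4% ribosomal share at both times), so a replicate block was fitted too. Nothing says that replicates were separate cultures, so p-values measure only the spread between these samples. CPM are fragments per 1000000 assigned fragments of a library. After the study's methods, genes with 0 fragments in any library of a fit were removed, leaving 5030 of 23356 (21.5%), and edgeR 4.0.16 (R 4.3.3; quasi-likelihood test, TMM factors 0.614 to 1.29) was fitted to all 16 libraries with 1 mean per group. A second fit used the 7 libraries over 4% (TMM factors 0.826 to 1.25). P-values were adjusted by Benjamini-Hochberg over all tested genes, with a threshold of 0.05. The SE was taken as the absolute log2 difference over sqrt(F). Myl9 was tested by an exact permutation test of log2(CPM + 1). Scripts were tested on simulated counts. Alternatives were DESeq2 1.42.0, the edgeR exact test, other filters and scalings, 2-group fits, a replicate block, thinning to 570323 fragments (1385229 in the second fit), the ribosomal covariate, libraries at or under 4%, a 6% threshold, other pseudocounts and leaving out each replicate.

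Depth was 570323 to 19930375 fragments a library, a 34.9-fold range, so 1 fragment is worth most in the shallow libraries, all controls included. Gene coordinates are from GENCODE M1 on NCBIM37, promoters from RefSeq on GRCm38.p6; coordinates of the 2 builds were not combined. The 10 genes and all gene lists were chosen with earlier results of these data known. Named beside the 10 genes were, from each list, those passing the threshold (none) and the 4 tested genes of highest mean CPM, and Srf, Mkl1, Yap1 and Wwtr1; 1 gene that this rule names is not reported here.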

Additional observations from a re-analysis of the deposited data

Results flagged for a closer look

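In 40 groups of 4 libraries (10 genes at 4 times), Dixon's ratio at the 95% level marked 2 values, which is the number that chance gives. Actg1 in control replicate 2 stood above the other controls, at log2(CPM + 1) of 8.23 against 7.13 to 7.21. This library also held the highest ribosomal protein share of the controls, 1.21%. Tpm1 in replicate 2 at 405 min stood below the other libraries of its time, at 5.50 against 8.03 to 8.34, and is the 1 library at 405 min with a ribosomal protein share of 4% or less. The part of library composition in these values was not tested.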

How the results depend on the processing

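Depth limits the low members most, since 3 fragments are 3.37 to 3.48 CPM in the controls. Of 843 alternative values for single members and comparisons, 786 kept their direction and their side of the threshold, 50 changed sign and 7 passed the threshold, the last all with DESeq2. No member was called by the edgeR exact test, another filter, another scaling, a fit on only the groups compared, thinning, a replicate block or leaving out any replicate, and for all 9 comparisons the count of members called and of genes called stayed at 0 when each replicate was left out. The cause of the changes below was not tested.

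DESeq2 called 4, 2 and 1 members and 330, 173 and 404 genes higher than control at 45, 135 and 405 min. It called 3 genes higher and 2 lower from 45 to 405 min in all libraries, and in the libraries over 4% 3 higher from 45 to 135 min and 41 higher and 21 lower from 45 to 405 min. With the edgeR exact test 12 genes were called higher than control at 405 min and 1 from 45 to 405 min. With filterByExpr, 1 gene was lower at 405 min against control, 1 from 135 to 405 min and 2 from 45 to 405 min. In the libraries over 4% it called 4 lower from 135 to 405 min and 2 higher and 4 lower from 45 to 405 min. With no filter, 1 gene was lower at 405 min against control, 2 from 135 to 405 min and 2 from 45 to 405 min. In the libraries over 4%, no filter gave 3 higher from 45 to 135 min, 4 higher and 4 lower from 135 to 405 min, and 10 higher and 6 lower from 45 to 405 min. With the ribosomal protein covariate, 1 gene was higher and 1 lower from 45 to 405 min. None of the genes called in these alternatives other than DESeq2 was a member.

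With the covariate the estimates of Acta2 against control were -1.28, -0.88 and -1.44 at 45, 135 and 405 min, and those of Tagln -0.67, -0.50 and -1.11. Those of Actb and Actg1 were -1.35 and -0.40 at 135 min and -0.12 and -1.12 at 405 min. At 405 min Tpm1 was at -0.60 and Vcl at -0.16, and at 45 min Cyr61 was at -1.02 and Ctgf at -0.015. In the libraries at or under 4%, the estimates at 45 min were -3.15 for Acta2, -0.083 for Actb, -0.54 for Actg1, -1.12 for Tagln, -0.20 for Cnn2, -0.78 for Tpm1, -0.58 for Vcl, -0.71 for Ctgf and -1.60 for Cyr61. At 135 min they were -0.34 for Acta2, -1.81 for Actb, -1.15 for Actg1, -0.31 for Tagln and -0.49 for Tpm1. This comparison could not be made at 405 min, where 1 library remained.

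Ctgf at 45 min changed sign with library totals without scaling factors (-0.16, an alternative chosen after seeing the data) and with thinning (-0.16), and Cyr61 at 135 min with filterByExpr (0.10) and no filter (0.13). Scaling by library totals moved the median of all genes against control from 0.14 to -0.07 at 45 min and from 0.11 to -0.16 at 405 min. Leaving out single replicates gave -0.60 to 0.38 for Ctgf and -0.16 to 0.83 for Cyr61 at 45 min, -0.60 to 0.67 for Ctgf and -0.62 to 0.20 for Cyr61 at 135 min, and -0.0054 to 0.84 for Ctgf at 405 min. The lowest of these values for both genes at 45 min came without replicate 1 at 45 min. In the libraries over 4% it gave -1.17 to 0.099 for Tagln from 45 to 135 min, and -0.060 to 1.01 for Acta2, -0.81 to 0.41 for Tagln and -0.57 to 0.75 for Cnn2 from 135 to 405 min. From 45 to 405 min it gave -1.41 to 1.58 for Actb, the highest without replicate 1 at 45 min, and -0.35 to 1.39 for Ctgf. For Myl9 it gave -1.69 to -0.19 at 45 min, -0.60 to 1.25 at 135 min and -0.35 to 1.14 at 405 min.

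Same-numbered libraries deviated together only between 45 and 135 min, where r was 0.474 to 0.529 in all 4 pairs. For the other comparisons the correlation of same-numbered libraries ranged from -0.757 to 0.582, at least 1 pair was at 0.1 or less, and the numbers were not taken to pair samples. Over all comparisons r was over 0.1 in 14 of 24 pairs, and 12 of 48 correlated best with their own number. The block changed no call, between 45 and 135 min included. With it 0 members were called, the members' medians against control were 1.70, 1.29 and 1.87, and 165, 141 and 786 genes were higher at an unadjusted p under 0.05. In the libraries over 4% the block moved Actb to 0.20 and Cnn2 to 0.093 from 45 to 405 min.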
